A study of Bos taurus with 6 samples.

Results

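The cytosolic ribosomal protein genes encode the proteins that, together with ribosomal RNA, build the ribosomes of the cytoplasm. They were taken here as the genes of the count table with an ordinary large-subunit (RPL) or small-subunit (RPS) name, or named RPLP0, RPLP1, RPLP2 or RPSA, and with a summed count of at least 60 over the 6 libraries. The rule took 77 of 20958 genes, 45 of the large subunit and 32 of the small subunit. Of 79 genes with such a name, 2 fell under the minimum, RPL3L with 9 reads in all and RPL10L with 0. The member nearest above the minimum was RPS27L with 13730 reads, so no member lay close to it. All 77 were annotated to the ribosome pathway in the deposited table, and all 77 passed the filter on low counts.

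The RNA came from BEND cells, a line established from the epithelium of the cow's uterine lining, and was sequenced as polyadenylated mRNA. In 3 libraries the cells had been transfected with a bta-miR-200b mimic, a synthetic duplex that supplies the mature microRNA, and in 3 with a negative-control mimic (mimic NC, here NC). All 6 samples also carry a treatment label of cell apoptosis, and the labels give neither a dose nor a time after transfection. The comparison asks which transcripts differ when miR-200b is raised in this 1 cell line. The labels do not say whether replicates were separate cultures, so every p-value refers to the spread among these 6 libraries, part or all of which may be technical.

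Each ribosome carries a single copy of nearly every ribosomal protein, and cells make these proteins in matched amounts. In mammals their mRNAs begin with a pyrimidine tract, the TOP motif, through which the growth-sensing kinase complex mTORC1 and the RNA-binding protein LARP1 control their translation and stability together. Some ribosomal proteins also act off the ribosome: RPL5 and RPL11 bind the p53 ligase MDM2 when ribosome assembly is disturbed. The genes are short, strongly expressed and copied in many processed pseudogenes, which makes read assignment between copies uncertain.

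Library totals ranged from 19212694 to 21129547 counts. Labels were checked on ZEB1, a well-known miR-200b target, at 25.8 to 31.8 CPM with the mimic and 37.9 to 42.1 with NC. CPM is the count scaled to library size (counts per 1e6) with TMM factors, and is not corrected for gene length, so levels are compared between libraries and not between genes. The epithelial keratins KRT8 and KRT19 were abundant in all libraries, while EPCAM was at 0 to 0.0986 CPM in the NC libraries. Stromal genes were abundant as well, with COL1A2 between 10994 and 12234 CPM, so both kinds of marker were present in the line. Of the epithelial markers 5 of 6 rose and none fell, and their summed level was 10430 to 11852 CPM with the mimic and 8587 to 9303 with NC. Of the stromal markers 2 of 6 fell, DCN and PDGFRB, and their summed level was 20993 to 23544 CPM against 22243 to 23262. The tested immune markers, and likewise the tested endothelial markers, summed to at most 5.31 CPM in every library, and PTPRC, the defining leukocyte gene, was at 0 in all 6. CD14 and PECAM1, the called genes of those lists, both fell. CD14, PECAM1 and PDGFRB each lost the call when certain single libraries were left out, with edgeR adjusted p-values of up to 0.204, 0.115 and 0.163, as did KRT8, at 0.0788 without NC replicate 1. CD14 also lost it with DESeq2 and limma-voom, at adjusted p-values of 0.0848 and 0.0536. The part of these markers in the results below was not tested. In bulk RNA, fewer cells of a type and less RNA per cell cannot be told apart.

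Ribosomal protein genes took a smaller share of all counts with the mimic. The share was 5.40%, 5.22% and 5.23% for the mimic (replicates 1, 2 and 3, an order kept throughout), and 6.11%, 6.08% and 5.52% for NC. The groups did not overlap, but NC replicate 3 stood nearer to mimic replicate 1 than to the other NC libraries. The mean was 5.28% ± 0.102 with the mimic and 5.90% ± 0.335 with NC (SD, n = 3 each), a difference of −0.62 percentage points. Wilson 95% intervals were at most 0.0209 percentage points wide, wider than the distance between mimic replicates 2 and 3 but far below the difference between the group means. Both subunits showed the same order. Large-subunit genes held 3.04% ± 0.0522 of the counts with the mimic and 3.38% ± 0.186 with NC (SD, n = 3), and small-subunit genes 2.24% ± 0.0504 and 2.52% ± 0.149 (SD, n = 3). The ratio of small- to large-subunit CPM was 0.731 to 0.741 in the mimic libraries and 0.741 to 0.752 in the NC libraries. No p is given for these sums, since they are scores over genes chosen with earlier results known.

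**Figure D1:**
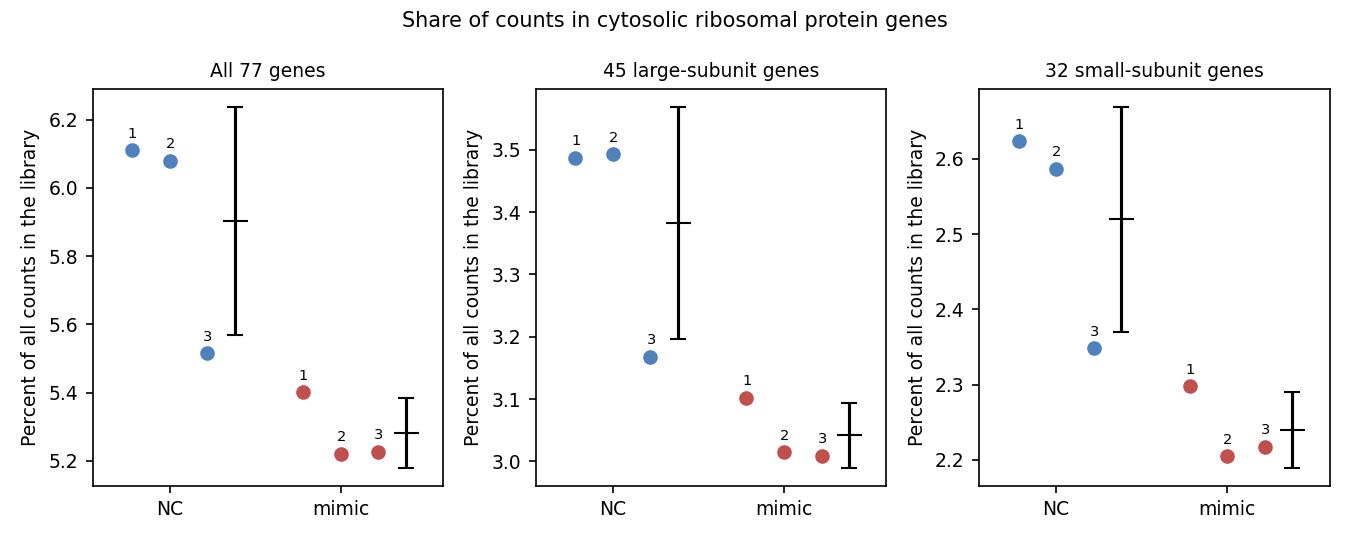
Percent of all counts in a library that fell on the 77 ribosomal protein genes (left), the 45 large-subunit genes (middle) and the 32 small-subunit genes (right). Numbered points are replicates and bars are mean ± SD, and the vertical axes do not start at 0. For all genes, the NC libraries sit between 5.52% and 6.11% and the mimic libraries between 5.22% and 5.40%.

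All 77 genes had a log2 fold change below 0, against 49.7% of the 12217 genes tested. The values ran from −0.29 for RPS28 to −0.04 for RPS27L, with a median of −0.15, while the median over all tested genes was 0.00. The median standard error was 0.07. With edgeR's quasi-likelihood test, adjusted by Benjamini and Hochberg's method over all tested genes, 3 of 77 fell at an adjusted p under 0.05 and none rose. That is 3.9% of the members, against 2.15% of all tested genes called lower and 4.3% called higher. At an unadjusted p under 0.05, 49 members were lower, or 63.6%, against 8.06% of all tested genes. In 34 members, 44.2%, every mimic library was below every NC library, against 10.4% of all tested genes lower without overlap and 11.4% higher without overlap. The members share the same 6 libraries and move together, so these counts are not independent observations.

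**Figure D2:**
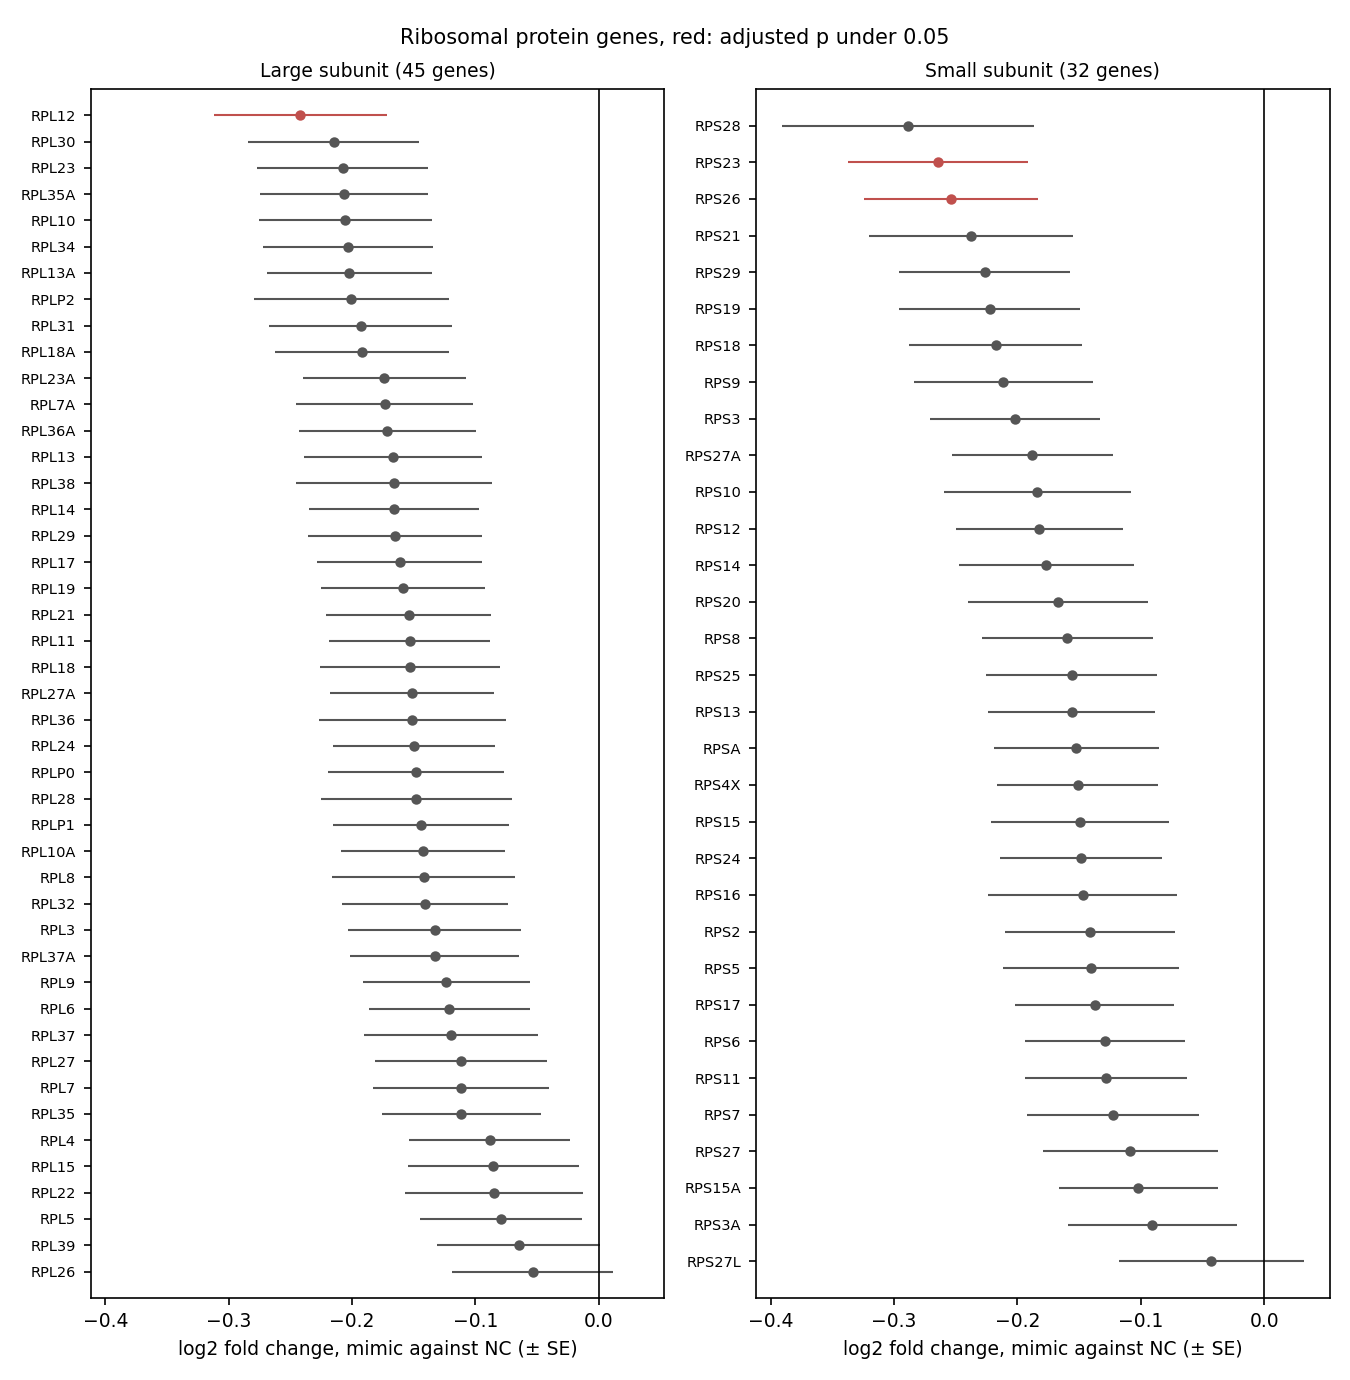
Log2 fold change of mimic against NC for each ribosomal protein gene, with its standard error, for the large subunit (left) and the small subunit (right). Red marks the 3 genes with an adjusted p under 0.05, RPL12, RPS23 and RPS26, and all 77 points lie below 0.

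The genes that fell belong to both subunits. RPS23, a small-subunit protein at the decoding centre, where codon and tRNA are matched, stood at 474, 439.5 and 454 CPM with the mimic and at 592, 561 and 490.5 CPM with NC. All mimic values were below all NC values, and the lowest NC library was NC replicate 3. RPS23 fell by 16.8%, a log2 change of −0.26 ± 0.07 (SE), with an edgeR adjusted p of 0.0285.

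RPS26, which contacts the mRNA where it leaves the small subunit and whose human gene is mutated in Diamond-Blackfan anaemia, was read at 688, 635 and 666 CPM with the mimic and at 847, 804 and 721 CPM with NC. The groups again did not overlap, with NC replicate 3 closest to the mimic libraries. RPS26 fell by 16.1%, at −0.25 ± 0.07 on the log2 scale and an edgeR adjusted p of 0.0308. RPL12, which sits at the base of the stalk that recruits translation factors, had 339, 298 and 329 CPM with the mimic and 391, 391 and 359.9 CPM with NC. RPL12 fell by 15.4%, at −0.24 ± 0.07 on the log2 scale and an edgeR adjusted p of 0.0379.

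These calls rested on single libraries. Without mimic replicate 2 none of the 77 genes passed edgeR's test, and RPS23, RPS26 and RPL12 had adjusted p-values of 0.172, 0.191 and 0.261. Without NC replicate 1 again none passed, and they had edgeR adjusted p-values of 0.273, 0.278 and 0.22. RPL12 also lost its call without NC replicate 2, at an edgeR adjusted p of 0.0673. With NC replicate 3 left out, the test called 10 members lower, against 1.24% of all genes tested then, and with mimic replicate 1 left out it called 15, against 1.97%. Over all genes, 0.665% were called lower without mimic replicate 2 and 0.753% without NC replicate 1. RPS23 overlaps ATG10, and as no source used here states whether counting was strand-aware, reads of these genes may not be told apart.

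**Figure D3:**
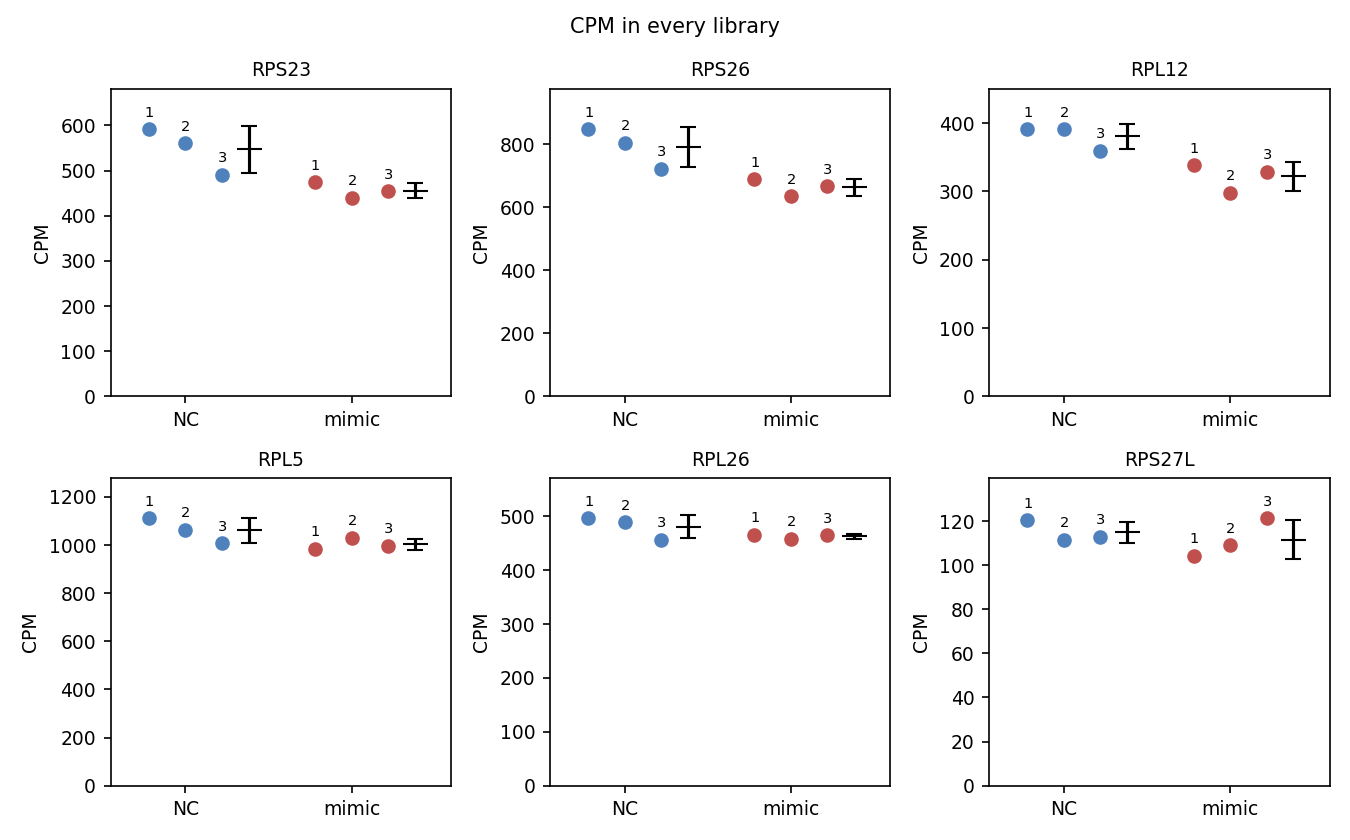
CPM in every library for the 3 genes that fell (top: RPS23, RPS26, RPL12) and for 3 genes with small differences (bottom: RPL5, RPL26, RPS27L). Numbered points are replicates and bars are mean ± SD. In the top row no mimic point reaches the lowest NC point, NC replicate 3, and in the bottom row the groups overlap.

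The libraries differed in a way that most members shared. NC replicate 3 was the lowest NC library for 76 of 77 genes, and the highest was NC replicate 1 for 42 and NC replicate 2 for 35. Among the mimic libraries, replicate 1 was the highest for 53 genes, 31 of the large and 22 of the small subunit, and replicate 2 was the lowest for 37. The median level of the members, centred on each gene's mean over the 6 libraries, was −0.02 in mimic replicate 1 and −0.01 in NC replicate 3 on the log2 CPM scale. It was −0.11 and −0.10 in mimic replicates 2 and 3, and 0.13 and 0.12 in NC replicates 1 and 2. The separation was thus widest between 2 libraries of each group. Without NC replicate 3 the groups did not overlap for 72 members, against 16.6% of all tested genes, and without mimic replicate 1 for 65 members, against 18.4%. These libraries were singled out as lying nearest to the other group in most members, which favours the members over all genes. The contrast with all genes is therefore no support for a separation.

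**Figure D4:**
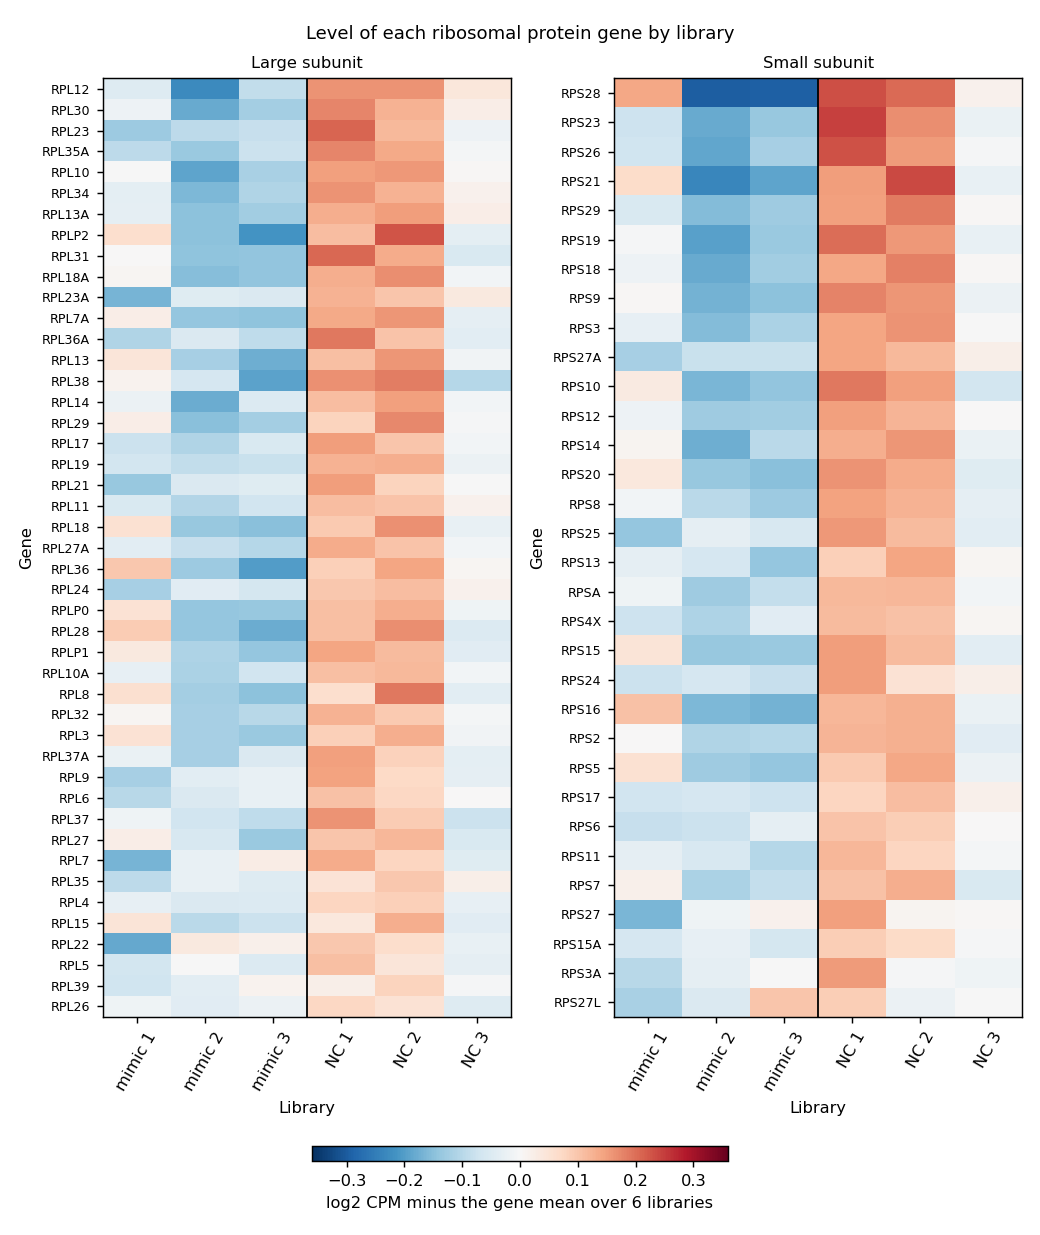
Log2 CPM of each gene minus its mean over the 6 libraries, with large-subunit genes on the left and small-subunit genes on the right, ordered by fold change. Columns are libraries, red is above and blue below the gene's mean. Columns NC 1 and NC 2 are mostly red and mimic 2 and mimic 3 mostly blue, while mimic 1 and NC 3 lie near 0, with medians of −0.02 and −0.01.

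Within the shared pattern, 56 members were higher in mimic replicate 1 than in the mean of the other mimic libraries and 21 were lower. RPS28, a partner of RPS26 at the mRNA exit, had the widest such gap, at 339 CPM in mimic replicate 1 and 250.3 and 251 CPM in replicates 2 and 3, against 361, 354 and 311 CPM with NC. Its log2 fold change of −0.29 ± 0.10 was the largest in size of the 77, and mimic replicate 1 lay inside the NC range, with an edgeR adjusted p of 0.118. RPL22, an RNA-binding protein on the outside of the large subunit, showed the opposite gap, at 226, 262 and 259 CPM with the mimic and 274, 267 and 251 CPM with NC. RPS28 was singled out after its values were seen.

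The stalk proteins form the arm of the large subunit that binds and activates translational GTPases. RPLP0, the stalk's anchor, stood at 2213, 1938 and 1944 CPM with the mimic and at 2303, 2341 and 2112 CPM with NC. RPLP1, which pairs with RPLP2 on it, stood at 1068, 964 and 945 CPM against 1149.9, 1127 and 1013 CPM. RPLP2 stood at 438, 379 and 361 CPM against 453, 491 and 409 CPM. In all 3 genes mimic replicate 1 exceeded NC replicate 3, so the groups overlapped. Their log2 fold changes were −0.15 ± 0.07, −0.14 ± 0.07 and −0.20 ± 0.08, with edgeR adjusted p-values of 0.266, 0.283 and 0.152. Of the stalk and its base, 1 of 4 genes passed, RPL12, against 2.15% of all tested genes called lower. The median was −0.17 against 0.00 for all tested genes. The group was set up with the values known, so 1 call in it is not a result about the group.

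At the mRNA exit, RPS14, RPS26 and RPS28 had a median log2 fold change of −0.25, the largest in size of the functional groups described. Of these, 1 of 3 passed, RPS26, against 2.15% of all tested genes called lower. RPS14, a protein of the small-subunit platform, was at 586, 516 and 544 CPM with the mimic and 637, 650.3 and 573 CPM with NC, at an edgeR adjusted p of 0.164. At the mRNA entry, none of RPS2, RPS3 and RPS9 passed, and the median was −0.20. RPS3, which also takes part in quality control of stalled ribosomes, was at 1036, 949.5 and 978 CPM against 1168, 1184 and 1057 CPM, without overlap and with an edgeR adjusted p of 0.0871. RPS2, with the most reads of all members, was at 2619, 2426 and 2439 CPM against 2851, 2857 and 2545 CPM, and the groups overlapped through mimic replicate 1 and NC replicate 3. These groups hold 3 genes each and were set up with the values known, so their order carries no test.

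A further group holds proteins that line the exit of the peptide tunnel, where the nascent chain leaves. None of the 7 passed, the median was −0.16 and the values ran from −0.19 for RPL31 to −0.05 for RPL26. RPL26, which has also been described as a regulator of p53 mRNA translation in human cells, was nearly level, at 466, 458 and 465 CPM with the mimic and 496, 489 and 457 CPM with NC. RPL39, a very small protein inside the tunnel, was at 258, 264 and 273 CPM against 275, 286 and 270.1 CPM, with an edgeR adjusted p of 0.678. Both sets of libraries overlapped, because NC replicate 3 was below at least 1 mimic library.

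RPL5 and RPL11 enter the large subunit together with its smallest RNA, and both bind MDM2 when that assembly is disturbed. RPL5 stood at 985, 1029.6 and 998 CPM with the mimic and 1111, 1063 and 1008 CPM with NC, an overlap through mimic replicate 2 and NC replicate 3 alone. RPL11 stood at 527, 509 and 522 CPM against 592, 588 and 553 CPM, without overlap. Neither passed, with log2 fold changes of −0.08 ± 0.07 and −0.15 ± 0.06 and edgeR adjusted p-values of 0.592 and 0.191. RPL23, a further MDM2-binding protein, was at 663, 679 and 685 CPM against 838, 787 and 715 CPM, without overlap and with an edgeR adjusted p of 0.0804.

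Diamond-Blackfan anaemia is an inherited failure of red cell production. Of 12 listed members whose human genes are mutated in it, RPS26 fell and the other 11 did not pass. The median of the list was −0.15, and 2.15% of all tested genes were called lower. RPS26 is the same call as at the mRNA exit. The list may not hold every such member. RPS19, the gene most often mutated there, was at 695, 608 and 635 CPM with the mimic and 801, 776 and 684 CPM with NC. Mimic replicate 1 lay above NC replicate 3, and the log2 fold change was −0.22 ± 0.07 with an edgeR adjusted p of 0.0764. RPL35A, another of them, was at 362, 353 and 367 CPM against 437, 425 and 385 CPM, without overlap, at an edgeR adjusted p of 0.0766. RPS29 came closest to the threshold of the genes not called, at 307, 286 and 292 CPM against 353, 363 and 319.5 CPM, with an edgeR adjusted p of 0.0512. RPS29 passed under some alternatives, RLE and upper quartile scaling and DESeq2 among them. It missed the threshold with TMM factors computed without the ribosomal protein genes, at an edgeR adjusted p of 0.0504, and with limma-voom. It also missed it without any 1 of 4 libraries (mimic replicates 2 and 3, NC replicates 1 and 2).

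Further members had small p-values without passing, among them RPL30, RPS18, RPL13A and RPS27A. RPL30, a small RNA-binding protein of the large subunit, stood at −0.22 ± 0.07 on the log2 scale with an edgeR adjusted p of 0.0664. RPS18, at the head of the small subunit, had −0.22 ± 0.07 and 0.0673. RPL13A, which in human myeloid cells leaves the ribosome to silence inflammatory mRNAs, had −0.20 ± 0.07 and 0.077. RPS27A, which is made as a fusion with ubiquitin, had −0.19 ± 0.07 and 0.0954. In these 4 genes every mimic library was below every NC library. RPS9 and RPS21, with edgeR adjusted p-values of 0.0889 and 0.0946, overlapped between the groups, and RPL34 and RPL10, at 0.0864 and 0.089, did not.

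Among further members with well-known roles, RPSA lay at the middle of the range, and RPS6, RPL3 and RPL4 had smaller differences. RPSA, also known as the laminin receptor, was at 1951, 1804 and 1859 CPM with the mimic and 2139.8, 2142 and 1958 CPM with NC, without overlap. Its log2 fold change was −0.15 ± 0.07, with an edgeR adjusted p of 0.216. RPS6, the small-subunit protein that S6 kinase phosphorylates on growth signals, was at 760.2, 762 and 788 CPM against 864, 857 and 806 CPM, also without overlap, at an edgeR adjusted p of 0.296. RPL3, at the peptidyl transferase centre, and RPL4, whose loop reaches into the tunnel, had log2 fold changes of −0.13 ± 0.07 and −0.09 ± 0.07. In both the groups overlapped.

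A pair of paralogues was measured side by side. RPS27, a zinc finger protein of the small subunit, was at 267, 297 and 303 CPM with the mimic and 332, 302 and 300.4 CPM with NC. RPS27L, its close copy and a p53-induced gene in human cells, had the smallest difference of the 77, at 104, 109 and 121 CPM against 120.3, 111 and 113 CPM. Their log2 fold changes were −0.11 ± 0.07 and −0.04 ± 0.07, and neither passed, at edgeR adjusted p-values of 0.456 and 0.835. The difference between the paralogues was not tested. RPS4X, the X-linked form of RPS4, was at 729.7, 712 and 746 CPM against 831, 826 and 773 CPM, without overlap and with an edgeR adjusted p of 0.204.

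The make-up of the ribosomal protein mRNA pool was compared between the groups without a test. When each gene was expressed as a percent of the summed CPM of the 77, the differences ran from −0.15 for RPS28 to 0.11 for RPS27L on the log2 scale. RPS23 made up 0.928% of the pool with NC and 0.861% with the mimic, and RPS26 made up 1.34% and 1.25%. RPL5 made up 1.80% and 1.90%, and RPL26 made up 0.816% and 0.876%. Such shares show unequal differences within the set and not which gene stayed level.

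Ribosomal protein genes also host small nucleolar RNAs, which guide chemical modification of ribosomal RNA, in their introns. By RefSeq's gene list, 27 of 77 members overlapped a small nucleolar RNA gene. Their median log2 fold change was −0.16, and that of the other 50 was −0.15. A protein-coding neighbour overlapped 8 members, RPS23, RPS6, RPS9, RPS25, RPS27, RPL35, RPL35A and RPL36, which leaves their values uncertain. A long non-coding RNA gene overlapped RPLP0, RPS14 and RPSA, with the same uncertainty. Unnamed loci annotated to the cytosolic ribosome numbered 36, of which 15 had no read. Together they held 29898 reads over the 6 libraries, against 6783638 on the members. Their share of counts was 0.0234% to 0.0238% with the mimic and 0.0237% to 0.0273% with NC.

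Ribosomal protein genes that the name rule leaves out were tested as well. In a list of 7, all had a log2 fold change below 0, against 49.7% of all tested genes. The median was −0.15 and none passed edgeR's test. RACK1, a scaffold on the small-subunit head, was at 1357, 1252 and 1259 CPM with the mimic and 1441, 1463 and 1368 CPM with NC, at an edgeR adjusted p of 0.244. RPL22L1, a copy of RPL22, was at 107, 122 and 113 CPM against 131, 129.9 and 126 CPM. FAU, the ubiquitin-like fusion gene of RPS30, was at 241, 211 and 197 CPM against 204, 256 and 225 CPM, with an edgeR adjusted p of 0.704. RPS4Y1, a further RPS4 gene outside the 7, was added after its values were seen and had a log2 fold change above 0. It stood at 204, 203 and 184 CPM against 182, 199 and 177 CPM. Its log2 fold change was 0.08 ± 0.07, at an edgeR adjusted p of 0.613.

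Other mRNAs of the TOP class, which encode mainly elongation and initiation factors and share the growth-controlled translation of ribosomal proteins, were tested next. Of 20 tested, none passed and the median was −0.09. A log2 fold change below 0 was found in 19, against 49.7% of all tested genes. EEF1A1, which brings aminoacyl-tRNA to the ribosome, was at 7067, 6925 and 7378 CPM with the mimic and 8271, 7919.7 and 7688 CPM with NC. The groups did not overlap, and the edgeR adjusted p was 0.177. EIF3F and EIF3K, subunits of the initiation factor that binds the small subunit, had log2 fold changes of −0.17 ± 0.07 and −0.14 ± 0.07.

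Of 17 tested genes of mTORC1 and TOP control, none passed and the median was 0.05. MTOR, the kinase of the complex, was at 176, 162 and 162 CPM with the mimic and 141, 135 and 149 CPM with NC. Its groups did not overlap, and it stood at 0.23 ± 0.07 on the log2 scale with an edgeR adjusted p of 0.0502. LARP1, which binds the TOP motif, was at 299.8, 294 and 265 CPM against 234, 257 and 264 CPM, at an edgeR adjusted p of 0.138. EIF4EBP1, a translation repressor inactivated by mTORC1, had a log2 fold change of −0.19 ± 0.10.

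Ribosome assembly factors build the subunits in the nucleolus and nucleus. Of 68 tested, 2 rose, none fell and 66 did not pass, against 4.3% of all tested genes called higher and 2.15% called lower. The median was 0.05, and 18 of the 68 had a log2 fold change below 0, against 49.7% of all tested genes. MDN1, the giant ATPase that remodels large-subunit precursors, rose from 52.7 ± 6.38 to 67.8 ± 2.03 CPM (SD, n = 3), with an edgeR adjusted p of 0.00897. WDR3, a component of the small-subunit processome, rose from 69.6 ± 0.808 to 83.9 ± 2.71 CPM (SD, n = 3), with an edgeR adjusted p of 0.0236. The call of WDR3 was lost in 3 cases, when mimic replicate 2 was left out (edgeR adjusted p of 0.137), when NC replicate 1 was (0.161) and when NC replicate 3 was (0.0738). UTP14A, another processome component, stood at −0.23 ± 0.07 on the log2 scale with an edgeR adjusted p of 0.059. Among 14 chaperones and importins of ribosomal proteins none passed, at a median of 0.02, and among 14 ribosome quality control genes none passed, at a median of 0.03.

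The remaining translation factors had a median of −0.01, and 1 of 32 fell, against 2.15% of all tested genes called lower. That gene was EEF1A2, the tissue-restricted relative of EEF1A1, at 3.56, 3.22 and 5.36 CPM with the mimic and 10.2, 8.33 and 8.38 CPM with NC. Its log2 fold change was −1.15 ± 0.17, with an edgeR adjusted p of 8.8e-05. EIF1, which guards start codon choice, was at 367, 318 and 323 CPM against 397, 404 and 361 CPM, with an edgeR adjusted p of 0.103. In the short list that links ribosomal proteins to p53, 2 of 8 rose, MDM2 and PHLDA3, and none fell. The median of the list was 0.02. Of its log2 fold changes 5 were above 0 and 3 below, the lowest at −0.24, against 49.7% of all tested genes below 0. Over all tested genes, 4.3% were called higher. MDM2, the p53 ligase, stood at 108, 127 and 126 CPM against 99.4, 103 and 100.1 CPM, with an edgeR adjusted p of 0.0425. The call was lost when mimic replicate 2 was left out (edgeR adjusted p of 0.246), and when mimic replicate 3 (0.087), NC replicate 1 (0.2235) or NC replicate 3 (0.116) was. It was also lost with upper quartile scaling and limma-voom, at 0.0519 and 0.0501. PHLDA3, a p53 target that inhibits Akt, stood at 384, 357 and 327 CPM against 282, 322 and 281 CPM, with an edgeR adjusted p of 0.0287. That call too was lost, at edgeR adjusted p-values of 0.115, 0.116, 0.206 and 0.126 without mimic replicate 1, mimic replicate 2, NC replicate 1 and NC replicate 3.

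Mitochondrial ribosomal protein genes, which build the separate ribosome of mitochondria, served as a second comparison. Of 78 tested, none passed and the median was −0.05. A log2 fold change below 0 was found in 56, against 49.7% of all tested genes. Every library's summed level lay between 3096 and 3308 CPM with the mimic and between 3099 and 3488 CPM with NC, so the groups overlapped. In 5 of 78 the mimic libraries were all below the NC libraries, against 10.4% of all tested genes. MRPL9, with the smallest p of the list, was at 87.0, 83.2 and 84.4 CPM against 99.2, 97.5 and 88.2 CPM, with an edgeR adjusted p of 0.23.

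**Figure D5:**
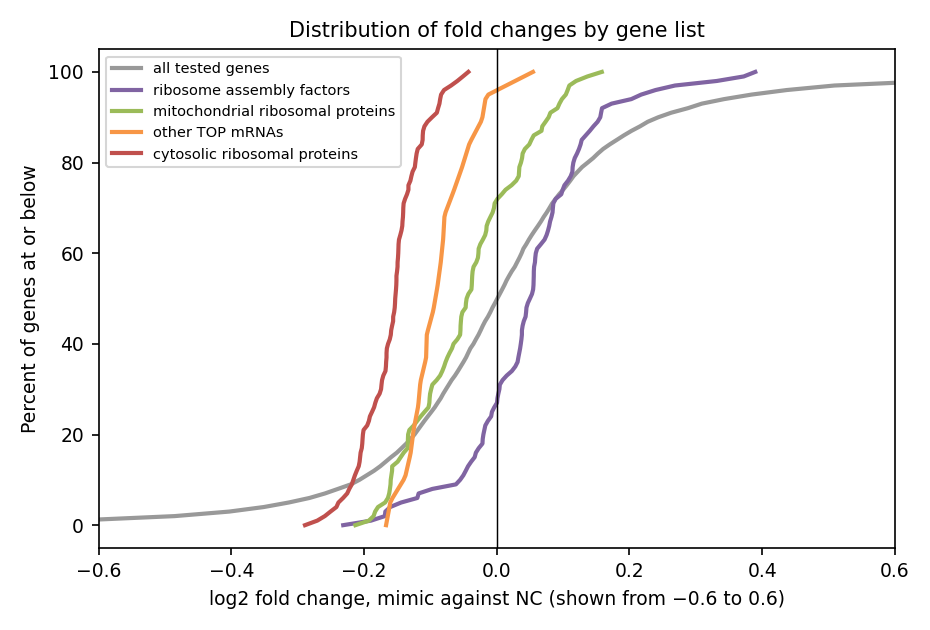
Percent of genes at or below each log2 fold change of mimic against NC, for all 12217 tested genes and 4 lists. The curve of cytosolic ribosomal proteins lies wholly below 0, with a median of −0.15, followed by other TOP mRNAs at −0.09 and mitochondrial ribosomal proteins at −0.05, while ribosome assembly factors have a median of 0.05.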

How the data were processed

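The deposited values are raw read counts, 1 column for each library, per the file headers. The submitters' processing notes name Trimmomatic, HISAT2 and HTSeq. Their settings, the genome build and the strandedness of counting were not given in the sources used here. The kit was Illumina's stranded TruSeq mRNA kit, per the labels' protocols. Symbols stored as dates, 26 in all, were restored through GeneIDs, and a RefSeq gene table (ARS-UCD2.0) gave overlapping neighbours.

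Counts were tested with edgeR 4.0.16 (limma 3.58.1, R 4.3.3) by the quasi-likelihood F test with TMM scaling, 1 term for group, and adjusted p-values (Benjamini-Hochberg, 0.05) over all 12217 genes that passed filterByExpr (minimum count 10, minimum total 15), two-sided. A standard error is the log2 fold change over the root of its F statistic. On simulated counts of 12169 genes with 200 changed, the test recovered 24% of log2 changes of 0.25, 88% of those of 0.5 and 100% of those of 1, and 7.14% of its calls were false. Depth was 19212694 to 21129547 counts per library, and intervals cover counting error only. Within groups, counts varied beyond sampling noise (chi-square over its degrees of freedom, 5.11 to 12).

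The members and lists were chosen with earlier results of these data known, and the functional groups of ribosomal proteins after the values were seen. The rule for named members took those called, the 10 smallest p-values, the 5 most and 5 least abundant, and a set of well-known genes; not all are printed. Other lists have up to 3 named genes, by smallest p. RPS28, RPL31, RPL34, RPL10, RPS9, members with overlapping neighbours, RACK1, FAU, RPS4Y1 and marker genes outside that rule were chosen after their values were seen. Alternatives were RLE, upper quartile and member-free TMM scaling, DESeq2 1.42.0, no filter, a stricter filter (at least 3 libraries reaching a CPM of 1), limma-voom, a replicate block and leaving out each library.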

Additional observations from a re-analysis of the deposited data

How the results depend on the processing

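No ribosomal protein gene was called higher in the analysis as reported or under any of the 14 alternatives. All 77 log2 fold changes stayed below 0 except without mimic replicate 1, where 76 did and RPS27L stood at 0.0025 (from −0.11 when other libraries were left out). The median log2 fold change of the members ranged from −0.20 to −0.13 when single libraries were left out, and from −0.16 to −0.15 under the other alternatives. The difference in share of counts ranged from −0.813 to −0.516 percentage points when single libraries were left out, and a minimum summed count of 15 took the same members.

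The count of members called lower was less stable. It was 3 as reported, 10 with no filter, 9 with DESeq2 and 20 under a replicate block, where 2.22%, 2.25% and 4.06% of all genes tested were called lower. Leaving out single libraries gave 0 to 15 lower members, and 34 to 72 members without overlap. The count without overlap cannot fall when a library is left out, so its lower bound of 34, the value as reported, was fixed in advance. The counts without overlap and of values below 0 under the alternatives were added after seeing the data. Over all genes, the replicate block gave 496 lower and 816 higher, and leaving out single libraries gave 82 to 414 lower and 275 to 731 higher, against 263 and 525 as reported. The labels give no shared source for same-numbered libraries, and not every pair deviated together, so the numbers were not taken as pairs. Deviations from the group means correlated at −0.0515, 0.128 and 0.189 for numbers 1, 2 and 3. Mimic replicates 2 and 3 correlated best with their own number, and mimic replicate 1 with NC replicate 2. The causes were not tested. Among genes not called, leaving out single libraries turned signs: RPL7L1 ranged from −0.108 to 0.0707 (0.0137 without mimic replicate 3), COL1A1 from −0.0043 to 0.122, COL1A2 from −0.0158 to 0.0628 (−0.0129 without mimic replicate 3, −0.0038 without mimic replicate 1) and CD68 from −0.0016 to 0.373, and FAU stood at 0.0073 without NC replicate 2.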
